A study of Mus musculus with 14 samples.

Results

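The peaks of H3K27me3, the trimethylation of lysine 27 on histone H3, were mapped by ChIP-seq, the sequencing of DNA recovered with an antibody against the mark, in cultured hippocampal neurons of the mouse with and without knockdown of NeuID, and those that were well covered and lower after the knockdown are described here. Of 23668 listed peaks, 5310 were well covered, meaning that both group values were above 0 and that their average was at least 3.5 on the log2 scale, or 11.3 normalized reads. Among these, 458 were at least 1 log2 unit lower in the knockdown than in the control (8.63% of the well-covered peaks), and 371 were at least 1 unit higher (6.99%). The 458 lower peaks were selected on this difference of the authors' group means, so the difference describes them and was not tested.

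The control group of 6 labelled ChIP libraries came from cultures given a negative control (NC) gapmer, and the knockdown group of 6 came from cultures given a gapmer against the long noncoding RNA NeuID. A gapmer is an antisense oligomer with a DNA core that directs cleavage of the RNA it pairs with. All cultures were WT hippocampal neurons from CD1 mouse embryos of mixed-sex litters, and both kinds of gapmer were given in lipid nanoparticles after the first days in culture. Cells were fixed with 5% PFA, and the same H3K27me3 antibody was used throughout. The culture day of the ChIP samples was given only as a range, and the labels do not say whether libraries of a group came from separate cultures.

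The deposited values are group means, so no spread between libraries accompanies any value here. The overall mean of each peak gave the control a weight of 0.545, as 6 control and 5 knockdown libraries would, whereas 12 ChIP libraries are labelled, so which libraries entered the group means is not certain. Single libraries and their depth were not analysed here. To compare the mark with the labelled cell type, peaks within 1 kb of the start were counted at chosen genes. Such a peak was listed at 2 of 9 neuronal genes (Syt1 and Nefl), against 47 of 53 genes that are silent in neurons. Most of the 53 were Hox and Gata genes, which do not separate neurons from glia, so this count cannot tell these cell types apart. Among the glial and endothelial genes of the list, Cldn5, Sox10 and Olig2 had such a peak. No such peak was listed at Gata1, Pecam1, Cx3cr1, Csf1r, Mbp or Gfap, which belong to blood, endothelial and glial cells.

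H3K27me3 is deposited by Polycomb repressive complex 2, whose catalytic subunit is EZH2, and marks genes that are kept silent. In differentiated neurons it covers the genes of other lineages and of earlier developmental stages, above all those of transcription factors that pattern the embryo. The complex is concentrated at CpG islands, stretches rich in CG dinucleotides that overlap many gene starts, and the mark often extends over the DNA around them.

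As examples of sequence under the lower peaks, 6 windows of 150 bases are given from the mm10 (GRCm38) plus strand, with each CG dinucleotide in capitals. Each is the window of its peak with the most CG outside untranslated and noncoding exons. The peaks were the strongest over a gene start (Gata4), the strongest between genes (upstream of Tlx1), the most negative over a coding exon (Prdm13), the most negative over the start of a listed transcription factor gene (Nkx2-6), the most negative in an intron of a protein-coding gene (Ebf1) and the peak richest in CG (Lin28b).
Gata4, intron, chr14:63268714-63268863: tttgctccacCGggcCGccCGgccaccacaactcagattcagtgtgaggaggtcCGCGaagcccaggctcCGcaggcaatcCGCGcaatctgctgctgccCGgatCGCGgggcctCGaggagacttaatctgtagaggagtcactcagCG
Tlx1 upstream, between genes, chr19:45143528-45143677: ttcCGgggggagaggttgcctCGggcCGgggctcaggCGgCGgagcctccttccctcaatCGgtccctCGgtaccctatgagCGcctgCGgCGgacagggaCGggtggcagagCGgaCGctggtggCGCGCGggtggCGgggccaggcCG
Prdm13, over a coding exon, chr4:21683418-21683567: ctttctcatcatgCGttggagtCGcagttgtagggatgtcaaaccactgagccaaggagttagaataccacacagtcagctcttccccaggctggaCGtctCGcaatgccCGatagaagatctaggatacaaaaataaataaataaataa
Nkx2-6, intron, chr14:69172278-69172427: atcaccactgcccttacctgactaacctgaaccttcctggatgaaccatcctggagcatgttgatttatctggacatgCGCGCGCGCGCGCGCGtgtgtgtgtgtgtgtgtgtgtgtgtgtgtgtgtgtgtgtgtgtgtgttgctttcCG
Ebf1, intron, chr11:44785335-44785484: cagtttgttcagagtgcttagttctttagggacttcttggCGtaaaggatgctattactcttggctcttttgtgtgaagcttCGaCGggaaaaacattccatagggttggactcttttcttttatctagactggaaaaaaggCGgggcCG
Lin28b, intron, chr10:45486044-45486193: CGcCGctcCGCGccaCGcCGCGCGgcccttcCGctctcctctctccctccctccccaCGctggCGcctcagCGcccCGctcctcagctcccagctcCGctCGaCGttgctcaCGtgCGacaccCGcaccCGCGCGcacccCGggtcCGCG
These windows held 13 CG at Gata4, 18 upstream of Tlx1, 5 in Prdm13, 9 in Nkx2-6, 5 in Ebf1 and 25 in Lin28b. All but the last CG of the Nkx2-6 window stand in an unbroken run that passes into a TG repeat. Over the whole peak, CG sites numbered 1.04 per 100 bases at Prdm13 and 16.6 at Lin28b, so the lower peaks ranged from CpG-poor to CpG-dense DNA. The median over the lower peaks was 1.72 per 100 bases. Windows chosen for the most CG therefore do not show the typical sequence of these peaks.

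The values of the 458 lower peaks ran from 4.04 to 7.22 in the control, with a median of 4.65, and from 1.89 to 6.04 in the knockdown, with a median of 3.21. At the median peak the knockdown mean was 41.2% of the control mean. The difference reached -3.79 at the most negative, with a median of -1.28 and quartiles of -1.56 and -1.11, so most lower peaks lay close to the limit. A difference of -1.5 or less was found in 131 peaks (28.6%), one of -2 or less in 34 (7.42%) and one of -3 or less in 4. The median difference of all well-covered peaks was -0.07.

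Peaks on either side of the limits had almost the same values. Just inside the difference limit were peaks nearest to Lamc3 (-1.001) and Gm22857 (-1.003), and just outside it were peaks nearest to Gm10074 (-0.999) and Epha2 (-0.995). Just inside the mean limit were peaks nearest to Gm48662 and Gm15841 (both with a mean of 3.506), and just outside it were peaks nearest to Itga7 (3.498) and Upp1 (3.496).

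Lower peaks were concentrated among the weaker of the well-covered peaks. They made up 272 of 2189 peaks (12.4%) with a mean of 3.5 to 4, 155 of 1799 (8.62%) with a mean of 4 to 5, and 31 of 1322 (2.34%) with a mean of 5 or more. Higher peaks became scarcer in the same way, with 240 (11.0%), 120 (6.67%) and 11 (0.832%) in these bins. Only 2 of 512 peaks with a mean of 6 or more were lower, those at Gata4 and upstream of Tlx1, and 1 was higher. Because place, width and sequence also vary with strength, the other 4852 well-covered peaks, which include the higher ones, were also weighted to the lower peaks' share of each bin.

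**Figure D1:**
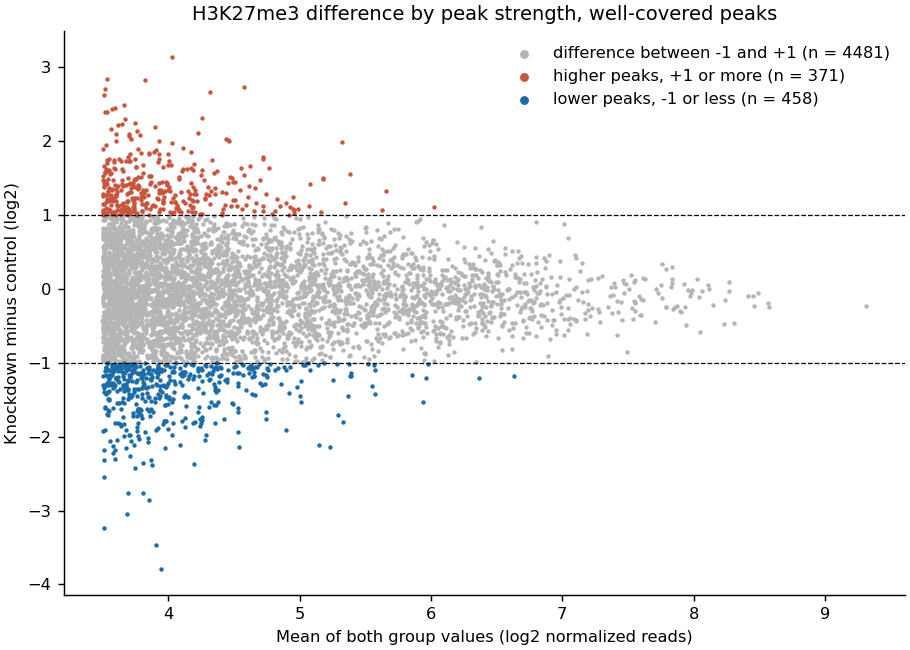
Each point is a well-covered peak, with the mean of both group values on the horizontal axis and the knockdown minus control difference on the vertical axis, both in log2 units. The 458 lower peaks (blue) lie below the dashed line at -1 and the 371 higher peaks (red) above the line at 1, and both groups thin out towards strong peaks.

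The 12 lower peaks with the highest mean included 8 at developmental genes, 2 on an unplaced scaffold, 1 at a transporter gene and 1 in a lincRNA. At a mean of 5 or more, 35.5% of lower and 32.5% of other peaks were nearest to a listed transcription factor gene, so such genes were about as common among strong peaks of either kind. The peak with the highest mean (chr14:63267378-63271779, 4402 bases) covered the start of Gata4, a zinc finger transcription factor of heart and endoderm development, and was listed at 7.22 in the control and 6.04 in the knockdown. An intergenic peak of 4005 bases (chr19:45140990-45144994), 5686 bases upstream of Tlx1, a homeobox gene needed for the spleen, was listed at 6.97 and 5.76. The 2942-base peak over the start of Gsx1, a homeobox gene of ventral forebrain progenitors, had values of 6.44 in the control and 5.27 in the knockdown. In each of these peaks the knockdown mean was still well above the mean limit.

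Other strong lower peaks lay beside gene starts and not over them. At Uncx, a homeobox gene of the axial skeleton, the lower peak began 4659 bases downstream of the start (6.48 in the control and 5.47 in the knockdown). Upstream of En2, a homeobox gene of the midbrain and hindbrain boundary, peaks 5684 and 39598 bases from the start were listed at 6.28 and 4.86, and at 6.03 and 5.01. The peak 7703 bases upstream of Foxb1, a forkhead gene of the developing diencephalon, had 6.70 in the control and 5.17 in the knockdown. At Wnt3a, which encodes a Wnt ligand, the lower peak lay 232 bases upstream of the start, with 5.98 in the control and 4.81 in the knockdown. The remaining peaks among the 12 strongest covered the start of Slc47a1, an exporter of organic cations (6.08 and 5.05), and an intron of the lincRNA Gm53 (6.57 and 5.36), or lay on an unplaced scaffold.

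The 10 most negative differences were found in peaks with control values between 4.78 and 5.84. The median control value was 4.65 for the lower peaks and 4.31 for all well-covered peaks. Under the mean limit, a peak with so negative a difference must have a high control value, so this contrast follows from the selection. A peak of 1542 bases over a coding exon of Prdm13 (chr4:21682891-21684432), a factor of dorsal spinal cord interneurons, was listed at 5.64 in the control and 2.17 in the knockdown, a difference of -3.47. Intronic peaks with a similar pattern lay in Ebf1 (5.19 and 2.43) and Ebf3 (4.78 and 2.24), which encode early B-cell factors, and in Zfhx3, a zinc finger homeobox gene (4.96 and 2.54). The Ebf1 and Zfhx3 peaks were nearest to the starts of the noncoding genes Gm12158 and Gm39244 but lay inside these hosts.

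Further peaks of this kind lay at genes of varied function. At Cacna2d2, an auxiliary subunit of voltage-gated calcium channels, the peak 9687 bases upstream had 5.28 in the control and 2.42 in the knockdown. A peak overlapping a noncoding exon in the body of Tet1, an enzyme that oxidizes methylated cytosine, had 5.07 and 2.32, and one 1265 bases upstream of Sox1ot, a transcript overlapping Sox1, had 5.07 and 2.69. An intergenic peak on chromosome 19 (chr19:43588103-43589252) was listed at 5.13 and 1.89, the lowest knockdown value of any lower peak. The most negative difference of all, -3.79, belonged to a 435-base peak on an unplaced scaffold (5.84 and 2.05). Of the 25 well-covered peaks on unplaced scaffolds 6 were lower and 0 were higher. All 6 lay on the same scaffold, where the differences of other peaks reached 0.945. Whether reads map uniquely there was not tested.

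**Figure D2:**
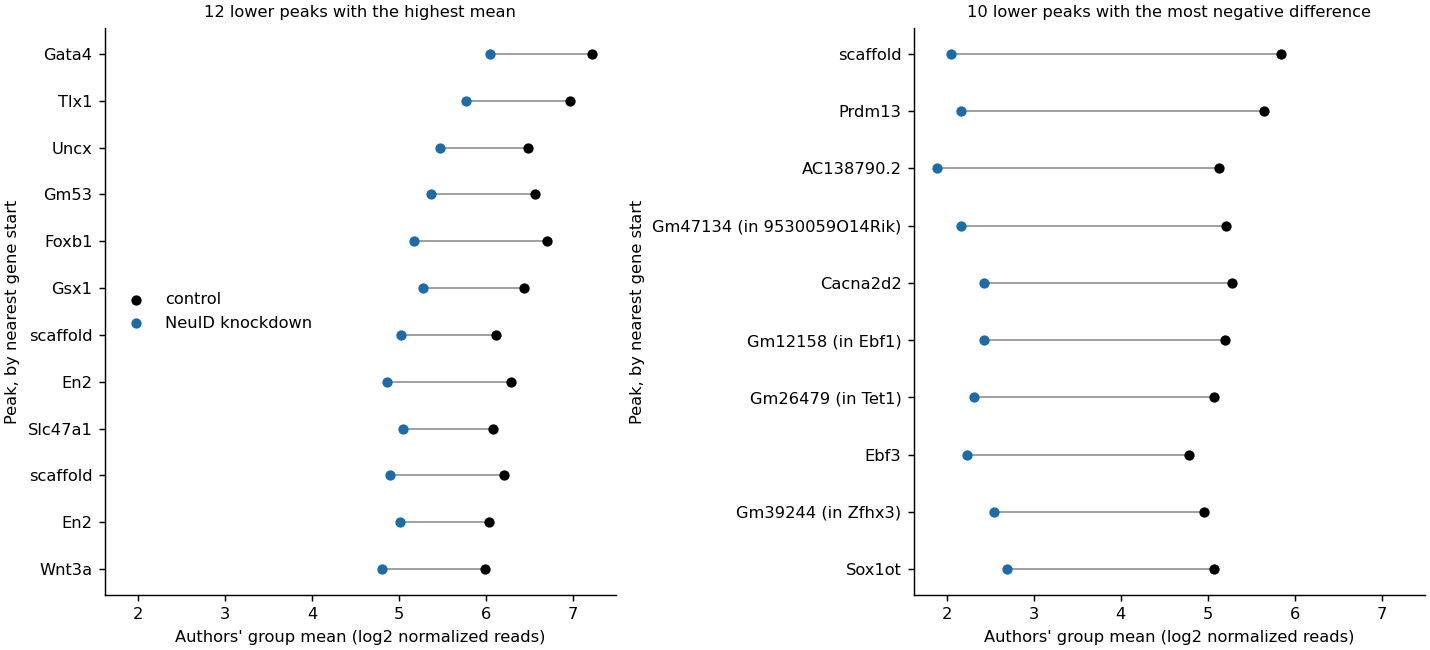
The authors' group means in log2 normalized reads (horizontal axis) are plotted for the 12 lower peaks with the highest mean (left) and the 10 with the most negative difference (right), each named by its nearest gene start on the vertical axis, with control in black and knockdown in blue. The strong peaks on the left kept knockdown values between 4.81 and 6.04, while those on the right lay between 1.89 and 2.69.

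The lower peaks were less often at gene starts than the other well-covered peaks, but most of this gap went with strength. A promoter peak, one within 1 kb of a gene start, was found for 112 lower peaks (24.5%), against 34.2% of the other peaks, 28.2% of the others weighted to the same strength and 31.8% of the higher peaks. Of the lower peaks on chromosomes, 12.4% covered a start, against 20.7% of the others and 14.1% after weighting. At a mean of 3.5 to 4, which holds 272 of the lower peaks, the order turned, with 9.26% of lower and 8.15% of other peaks over a start, although promoters held 18.8% and 21.5%. In the stronger bins the lower peaks kept the smaller shares. At 4 to 5, starts were covered by 13.6% and 19.1%, and promoters held 32.3% and 35.1%. At 5 or more, starts were covered by 35.7% and 41.4%, and promoters held 35.5% and 52.1%. Introns held 108 lower peaks (23.6%, against 18.8% and 22.4% weighted), and the space between genes held 156 (34.1%, against 28.3% and 32.2% weighted). Coding exons held 50 (10.9%, against 12.6% and 11.3% weighted). Apart from promoters, the weighted shares of these places differed from the lower peaks by less than 2 percentage points. The median distance to a gene start was 4548 bases for the lower peaks and 3008 for the others.

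A difference of the same kind was found in base composition. CpG-rich peaks, with a GC content of at least 50% and at least 0.6 of the CG expected from it, numbered 57 (12.6%) among the 452 lower peaks on chromosomes, against 22.3% of the others, 18.0% after weighting and 19.1% of the higher peaks. Read the other way, 5.03% of the 1134 CpG-rich well-covered peaks were lower and 6.26% higher, against 9.52% and 7.23% of the 4151 peaks that were not CpG-rich. The median number of CG per 100 bases was 1.72 in lower, 2.53 in other and 2.29 in higher peaks, and the median GC content 51.2%, 53.0% and 53.4%. The gap was small among the weakest peaks. At a mean of 3.5 to 4, 10.7% of lower and 12.5% of other peaks were CpG-rich. At 4 to 5 the shares were 15.6% and 24.3%, and at 5 or more 14.3% and 34.3%.

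Among peaks with a mean of 5 or more, 4 of 443 CpG-rich peaks were lower and 4 were higher, while 24 of 864 remaining peaks were lower and 7 higher. Short motifs of 6 bases were looked for on both strands of the central 300 bases of each peak. The homeodomain core TAATTA was present in 5.31% of lower peaks, 4.43% of the others and 2.96% of higher peaks. The E-box CAGCTG was present in 14.4%, 18.6% and 18.6%, and the GC box GGGCGG in 18.4%, 23.9% and 22.6%. After weighting to the same strength, 4.50% of the others held TAATTA, 19.4% CAGCTG and 20.7% GGGCGG. A match is a string of letters and not a bound site.

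**Figure D3:**
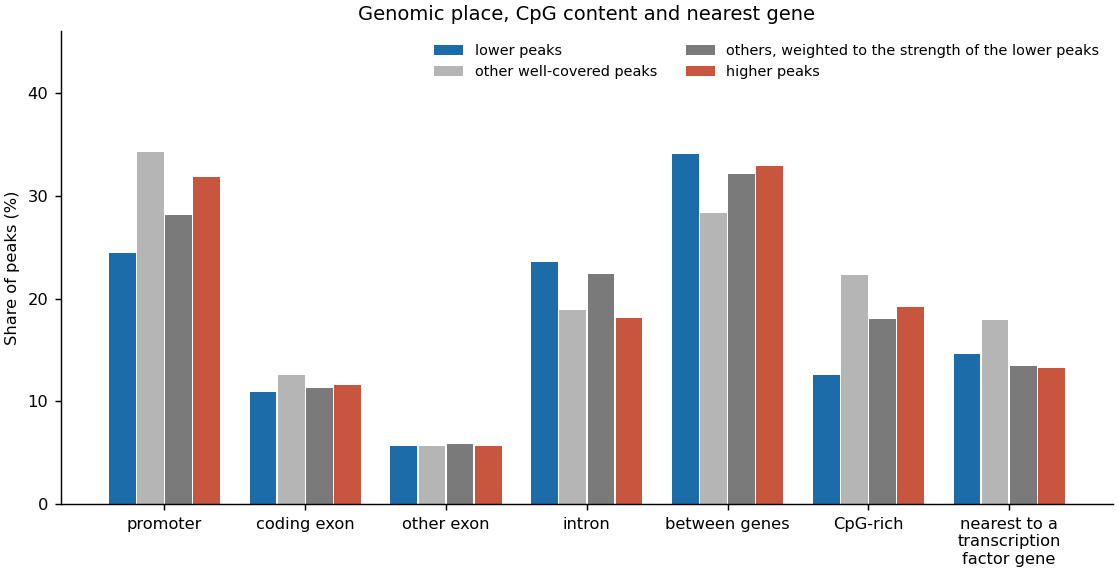
Bars give the share of peaks in percent (vertical axis) at each genomic place, with CpG-rich sequence or nearest to a listed transcription factor gene, for lower peaks (blue), the other well-covered peaks before and after weighting to the lower peaks' strength (light and dark grey) and higher peaks (red). The lower peaks have the smallest shares at promoters (24.5%) and with CpG-rich sequence (12.6%).

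Width followed strength, and within the weaker bins both the lower and the higher peaks were wide. The median width was 894.5 bases for lower, 915 for other and 826 for higher peaks, and the lower peaks ranged from 269 to 4402 bases. At a mean of 3.5 to 4 the medians were 763.5 bases for lower, 643 for other and 719.5 for higher peaks, and at a mean of 4 to 5 they were 1104, 970 and 1065. At a mean of 5 or more they were 2053, 2030 and 1932. Only 4.15% of the lower peaks reached 2 kb, against 13.9% of the others, but 3.56% of the others after weighting.

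**Figure D4:**
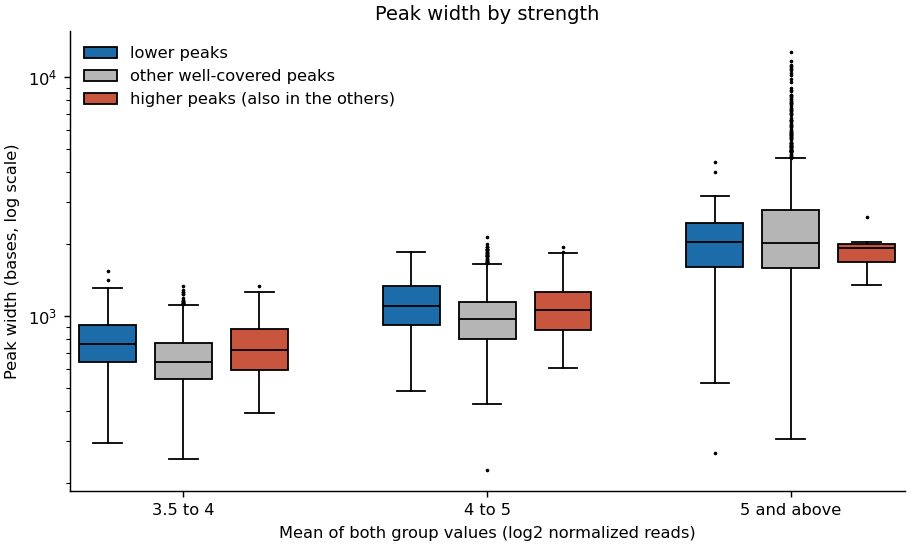
Peak width in bases (vertical log axis) is plotted in 3 bins of the mean of both group values for lower (blue), other (grey) and higher (red) peaks, with boxes at the quartiles, a line at the median, whiskers to 1.5 times the box height and points beyond. Lower peaks had the larger median in the first bin (763.5 against 643 bases) and almost the same median in the last (2053 against 2030).

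The 458 lower peaks were nearest to 399 genes or lay on the scaffold. Of these peaks, 252 were nearest to a protein-coding gene, 110 to a long noncoding RNA gene and 90 to another gene type, and 6 lay on the scaffold. In 31 gene lists covering transcription factors, signalling, membrane, matrix and cell type genes, 93 lower peaks (20.3%) had their nearest gene and 365 did not, against 24.2% of all well-covered peaks with a nearest gene in a list.

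Transcription factor genes were nearest to 67 lower peaks, or 7.17% of their 935 well-covered peaks, and to 49 higher ones, against 8.63% and 6.99% over all well-covered peaks. Their share of the lower peaks was 14.6%, against 17.9% of the others and 13.4% after weighting, and with the nearest protein-coding start in place of any start it was 31.0% against 31.6%. The median difference over all 935 was -0.11. Of the 67, only 4 covered the start of their gene, at Gata4, Gsx1, Nkx2-6 and Lhx4, and 60 lay more than 1 kb away. By position, 4 of 190 well-covered peaks over a transcription factor start were lower (2.11%), against 29 of 398 (7.29%) within 5 kb and 34 of 347 (9.80%) farther away. The higher peaks followed the same order, with 2.11%, 5.03% and 7.20%. For all remaining genes on chromosomes the shares of lower peaks were 6.00%, 8.96% and 10.1%. The transcription factor starts carried the strongest peaks, with a median mean of 6.53, against 4.80 over the starts of the remaining genes.

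Among the families, nuclear receptor genes had 4 lower and 0 higher peaks of 27, at Esr1, Esrrb, Nr2f2 and Rxra. T-box genes had 4 and 0 of 46 (Eomes, Tbx2, Tbx20 and Tbx4), Gata and Hand genes 4 and 1 of 38, all 4 at Gata4, and forkhead genes 5 and 2 of 70. Hox genes, which set position along the body axis, had 7 lower and 5 higher peaks of 102, LIM homeobox genes 5 and 3 of 53, and Nkx genes 5 and 4 of 49. In the large group of other homeobox genes, 21 of 285 were lower and 14 higher. Basic helix-loop-helix genes had 3 lower and 6 higher of 71, and Sox genes 1 and 3 of 14. Irx genes had 0 lower and 3 higher of 26, and none of 13 Dlx and 16 peaks of the sine oculis homeobox family was lower or higher. Over all well-covered peaks 8.63% were lower and 6.99% higher. The lower share was 6.86% for Hox, 7.14% for forkhead, 7.37% for other homeobox and 8.70% for T-box genes. It was 9.43% for LIM homeobox, 10.2% for Nkx, 10.5% for Gata and Hand and 14.8% for nuclear receptor genes. Counts this small were not compared with the share over all well-covered peaks or between families.

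Signalling genes, which encode secreted cues and their receptors, were nearest to 11 lower and 4 higher peaks of 116 (9.48% and 3.45%, against 8.63% and 6.99% over all well-covered peaks), so the lower share was near the background. The lower ones included Wnt3a, Wnt9b, Wnt11 and the Wnt inhibitor Sfrp5, the BMP ligand genes Bmp4, Gdf6 and Gdf7, and Shh and Fgf8. At Shh, the hedgehog ligand, a peak 4548 bases from the start was listed at 4.65 in the control and 2.52 in the knockdown. The promoter peak of Gdf7 had 5.17 and 3.32, that of Bmp4 5.02 and 3.69, and an intronic peak of Fgf8 5.10 and 3.56. Values for Shh, Gdf7, Bmp4, Fgf8 and the neuronal genes that follow were chosen after they had been seen.

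Membrane genes had 14 lower and 18 higher peaks of 213 (6.57% and 8.45%, against 8.63% and 6.99% over all well-covered peaks). Ion channel genes held 7 lower and 5 higher of 71 (9.86% and 7.04%), and solute carriers 5 and 5 of 66 (7.58% each). Both were near the share over all well-covered peaks. Monoamine and acetylcholine receptor genes held 0 and 5 of 30. At Slc12a5, the neuronal chloride exporter, an intronic peak had 4.64 in the control and 3.34 after knockdown, and at Kcns1, a modulatory potassium channel subunit, a coding exon peak had 5.54 and 4.52. None of 16 cadherin and 16 collagen gene peaks was lower or higher. Of 11 peaks at glial genes 1 was lower and 3 were higher, and the lower one lay 3440 bases from the start of Pdgfra, a receptor of oligodendrocyte precursors (4.57 and 3.56). Neither the 4 peaks at neuronal genes nor the 1 at microglial and endothelial genes was lower.

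At many genes a lower peak away from the start stood beside a start peak whose value barely differed. Of the lower peaks more than 1 kb from the start of their nearest gene, 122 at 107 genes had a well-covered peak over that start. The median difference was -1.31 for these lower peaks and -0.08 for the start peaks, which ranged from -1.99 to 1.34. Counted once for each gene, 5 of the 107 start peaks (4.67%) were themselves lower, those of Gata4, Kank1, Lin28b, Gm47134 and D130079A08Rik, against 5.30% of all well-covered peaks over a gene start. For transcription factor genes the medians were -1.23 and -0.04 over 49 lower peaks at 39 genes. Since the lower peaks were chosen by their difference and the start peaks were not, these medians are given as a description.

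Single genes show the pattern, and those named here, like the pairs across short gaps that follow, were picked with their values in view. At Prdm13 the start peak had 6.93 in the control and 6.98 in the knockdown, while the lower peak over a coding exon began 118 bases beyond its edge. At Wnt3a the start peak had 6.37 and 6.39, with the lower peak 193 bases from it, and at Tal1, a blood and endothelial factor, it had 6.75 and 6.70, with a lower peak 42 bases away (5.37 and 3.70). At Tlx1 and Lmx1a, a LIM homeobox gene of the roof plate, the start peaks were higher in the knockdown by 0.87 and 0.49, while the upstream peak of Tlx1 and the coding exon peak of Lmx1a (5.96 and 4.82) were lower. At Foxe1, a thyroid forkhead gene, the start peak had 7.77 and 7.90, and both peaks upstream were lower (5.03 and 3.43, and 5.15 and 3.38). Mnx1, a gene of motor neurons and pancreas, had a start peak of 7.25 and 6.86 beside a lower peak of 5.34 and 3.73.

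For 210 lower peaks (45.9%) another well-covered peak lay within 1 kb, against 47.6% of the other peaks and 34.5% of the higher peaks. At a mean of 3.5 to 4 these shares were 37.5%, 30.8% and 28.3%, at 4 to 5 they were 55.5%, 48.6% and 45.0%, and at 5 or more 71.0%, 71.1% and 54.5%. The nearest neighbour was stronger than the lower peak itself in 136 of the 210 pairs (64.8%), against 49.7% beside the other peaks and 73.4% beside the higher peaks. It was lower in 13 pairs (6.19%) and higher in 11 (5.24%), against 9.01% and 4.98% beside the other peaks. Its difference was above 0 in 96 pairs (45.7%), against 41.9%. In 41 pairs the neighbour covered a gene start and 0 of these were lower, against 16 of 451 (3.55%) beside the other peaks. Beside the higher peaks 9.38% of neighbours were lower and 5.47% higher, and 3 of 28 neighbours over a start were lower. Over all pairs, the neighbours of lower peaks were thus stronger more often, and lower less often, than those of the other peaks. The contrast in strength varied with the peak's own mean, and the pairs were not weighted to the same strength. At a mean of 3.5 to 4 the order turned, with a stronger neighbour in 78 of 102 pairs, against 489 of 591. At 4 to 5 the share beside lower peaks was slightly larger. At 5 or more a stronger neighbour was found in 9 of 22 pairs, against 224 of 918. The shares of higher neighbours beside lower and other peaks were close (5.24% and 4.98%), and none of these differences was tested.

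Opposite differences were found across short gaps. Inside the lncRNA 9530059O14Rik, a lower peak with 5.21 in the control and 2.17 in the knockdown lay 139 bases from one with 2.97 and 4.65. At Gsx1 the lower start peak lay 35 bases from a peak of 4.97 and 5.46. Within 5 kb of the lower peaks there were 721 well-covered peaks, of which 52 were lower (7.21%) and 36 higher (4.99%), with a median difference of -0.10. Beside any well-covered peak the shares were 9.44% and 5.68%, so lower peaks did not stand together more often than this background.

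Of the nearest genes, 44 were nearest to 2 or more lower peaks and 8 to 3 or more. The genes named here and in the next paragraph were picked from these 44, so high counts of lower peaks follow from the choice. Over all well-covered peaks 8.63% were lower and 6.99% higher. Gata4 had 4 lower and 0 higher of 15 peaks, with values of 7.22 and 6.04 over the start and, in the gene body, 5.22 and 4.10, 4.36 and 2.99, and 4.14 and 2.96. En2 had 3 lower of 8 with a median over all 8 of -0.64, and Gsx2, another ventral forebrain homeobox gene, 3 of 11 with 1 higher. The lower Gsx2 peaks lay downstream of the gene (5.19 and 3.87, 5.78 and 4.25, and 4.64 and 2.73), while its start peak had 5.94 and 5.95. Pax3, a gene of neural crest and muscle, had 2 lower of 26 with 1 higher.

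Of the 44 genes, 11 were listed transcription factor genes, and 23 were of types other than protein-coding, such as lincRNAs and pseudogenes. These counts were not compared with those of other genes. Both well-covered peaks of Pmaip1, a pro-apoptotic BCL2 family gene, were lower (4.76 and 3.54, and 4.60 and 2.42), as were both of Tpm1, a tropomyosin (4.86 and 2.95, and 4.23 and 2.82). Lin28b, an RNA-binding inhibitor of let-7 maturation, had 2 lower of 13, the CpG-dense peak over its start (4.22 and 3.19) and one 2147 bases upstream (4.31 and 3.07). At Kank1, a regulator of the actin cytoskeleton, the start peak had 4.66 and 2.67 and an intronic peak 4.88 and 3.71.

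Some groups of lower peaks became visible only by gene body, because their nearest starts belonged to noncoding genes inside the host. These genes were chosen after the values had been seen, and over all well-covered peaks 8.63% were lower and 6.99% higher. Ebf1 had 4 lower and 0 higher of 17 peaks in its body, with a median of -0.39. Together Ebf1, Ebf2, Ebf3 and Ebf4 held 9 lower and 4 higher of 74 peaks (12.2% lower), with a median of -0.21. Ebf2 had 2 lower and 2 higher of 20 (10.0% lower), and Ebf3 had 3 and 2 of 36 (8.33% lower). The family's lower share thus exceeded that of all well-covered peaks mainly through Ebf1. Casz1, a zinc finger gene, had 4 lower and 2 higher of 15, and Lmx1b, a LIM homeobox gene, 3 lower of 14 in its body, with 1 higher peak in or within 20 kb of the gene. Zfhx3 had as many higher as lower peaks, 3 of each among 29. In and within 20 kb of Gm20388 there were 4 lower and 2 higher of 55, with a median of 0.01. Cdkn2a, which encodes cell cycle inhibitors, had 3 lower of 12 in its body, and Grik3, a kainate receptor gene, 3 of 14. Within each of these hosts most well-covered peaks were neither lower nor higher.

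**Figure D5:**
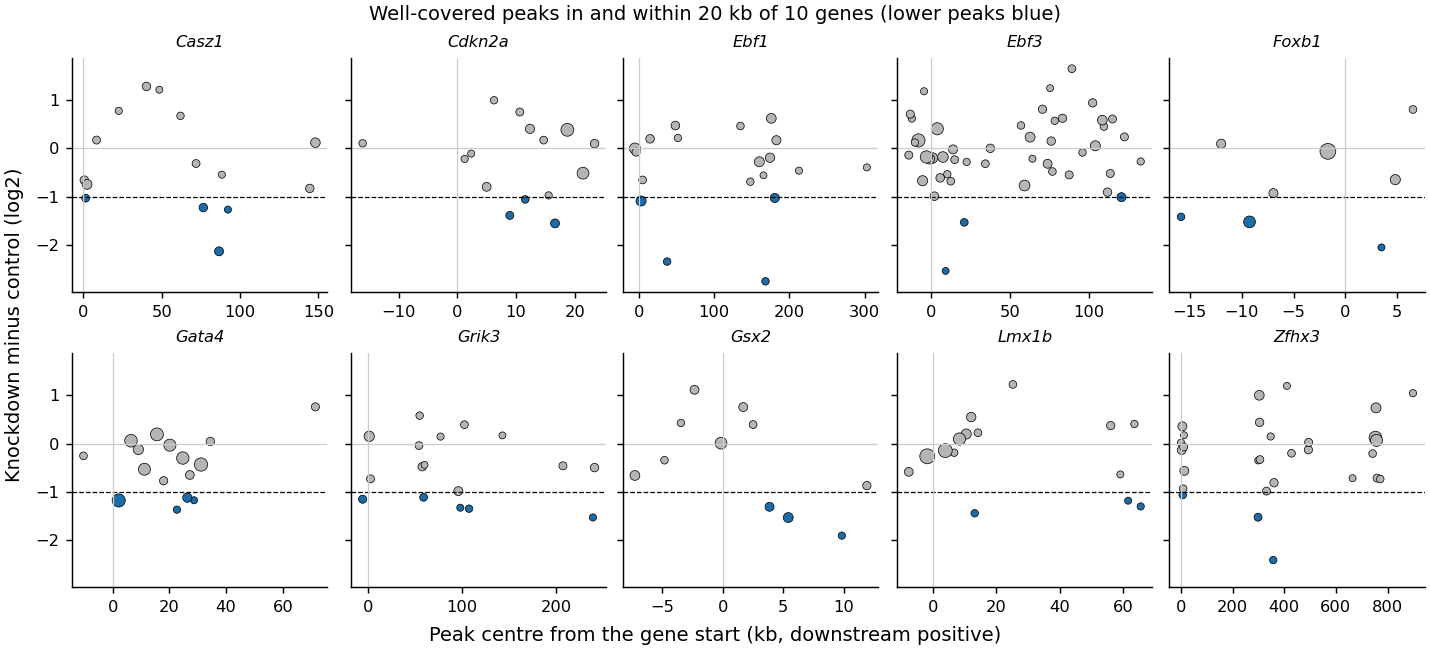
For the 10 genes with an assigned gene name and at least 3 lower peaks in or within 20 kb of the gene, each well-covered peak is plotted by the distance of its centre from the gene start in kb (horizontal axis) and its knockdown minus control difference in log2 (vertical axis), with lower peaks in blue and larger points for stronger peaks. The median difference over the peaks of a gene was -0.79 at Foxb1, -0.55 at Casz1 and -0.48 at Grik3, and -0.14 at Zfhx3 and Ebf3.

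Over the chromosomes, the share of well-covered peaks that were lower was highest on chromosome 4 (48 of 398, 12.1%, with 9.55% higher) and lowest on chromosome 18 (5 of 125, 4.00%, with 8.00% higher). Chromosome X held 55 well-covered peaks, of which 5 were lower and 3 higher. Fewer lower than higher peaks were found on chromosomes 1, 2, 15, 16, 17 and 18.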

How the data were processed

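For ChIP-seq, the authors aligned single-end 50-base reads to mm10 (bowtie2), took broad peaks from MACS2 and ran DiffBind on the 2 groups. The deposited values are log2 means of normalized reads, given per peak for the control, the knockdown and all libraries together. How reads were normalized, how peaks were merged and how input and duplicate reads were treated is not given in the sources used here, and an unstated normalization can move the balance of lower and higher peaks. The table's fold, p-value and FDR columns hold the authors' own comparison and were not used.

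Differences, widths, shares and medians were computed with Python 3.11.15, numpy 2.4.6, pandas 2.3.3 and SciPy 1.17.1, after a check on simulated peaks. Each peak took the name of the closest GENCODE M21 gene start, and sequence was read from GRCm38, the build that mm10 names. Place was ranked as promoter, coding exon, other exon, intron and between genes. No test was run, because the members were chosen by their difference and no replicate values were at hand. Named peaks were the 12 with the highest mean, the 10 with the most negative difference, the 12 strongest within 5 kb of a listed transcription factor, signalling or cell type gene, those of genes nearest to 2 or more lower peaks, and 2 on each side of each limit. Members, gene lists and alternatives were chosen with earlier results of these data known. Input libraries were not analysed here.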

Additional observations from a re-analysis of the deposited data

How the results depend on the processing

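No paired analysis was possible because only means over each group were at hand, which also meant that no library could be left out. The number of lower peaks moved to 1031 with a mean of at least 3, to 186 at 4 and to 31 at 5, to 798 with a difference of -0.75 or less and 131 at -1.5 or less, and to 752 with the overall mean in place of the average of both groups. After centring on the median difference there were 391 lower and 430 higher peaks, so the order of the 2 counts rests on the centring. Keeping groups at 0 left 458, and autosomes only 447.

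The promoter share of the lower peaks moved to 19.5%, 32.8% and 35.5% with a mean of at least 3, 4 and 5, to 34.7% within 2 kb, to 12.2% for a covered start, to 18.6% with protein-coding starts and to 33.2% with all transcript starts. The transcription factor share moved to 10.6% and 35.5% with a mean of at least 3 and 5, to 31.0% with the nearest protein-coding start (31.6% of the others) and to 7.21% within 5 kb. The median width moved to 701, 1161.5 and 2053 bases with a mean of at least 3, 4 and 5, and to 992 bases with a difference of -1.5 or less. The limits and definitions themselves differ between these settings, and other causes were not tested. The CpG-rich share stayed between 10.5% and 15.4% and the promoter share stayed below the unweighted share of the other peaks under each alternative. Weak peaks rest on few reads, and without values per library their error is not known.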
